A study of Homo sapiens with 2 samples.

Results

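The regions described here are RNA peaks whose centre lies in the first exon of a gene, found in an immunoprecipitation (IP) of RNA from Huh-7, a long-established cell line of human liver cancer. Of 7643 peaks that the authors deposited, 7533 fell in genes with 2 or more exons, and 548 of these were centred in the first exon (7.27%, exact binomial 95% interval 6.70% to 7.88%). They lay in 446 genes. Each peak was given to the gene on its strand with which it shared most exonic bases. The exons of all isoforms of a gene were merged where they overlapped, and the first merged exon was taken by strand, so that it can join several alternative first exons. The centre was measured along exonic bases only, because the genomic span of a peak can run across introns. The rule used position alone, and the height of a peak did not enter it, nor did the level of its gene, other than to settle 12 ties between genes. A further 5632 peaks were centred in internal exons, 1353 in last exons, and 110 lay in genes of a single merged exon.

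The series held 2 libraries from wild-type Huh-7 cells under no treatment, 1 IP and 1 input, in an RNA immunoprecipitation sequencing (RIP-seq) experiment. Per the labels, 10% of the lysate was kept as input and 90% went into the IP. Per the design text the antibody was against SRSF7, whereas the sample protocol names an antibody against YTHDF2 applied to poly(A) RNA, and the treatment label of the IP reads SPSF7. The libraries are therefore called the IP and the input. With 1 library per group there is no replicate, no test was made, and every interval of a gene ratio covers counting error of reads only. Intervals of shares of peaks or genes treat each peak or gene as independent, although several peaks can lie in 1 gene. They do not measure spread between experiments.

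SRSF7 is a serine/arginine-rich splicing factor that binds exonic sequence, and YTHDF2 is a cytoplasmic reader of N6-methyladenosine that leads to decay of the mRNA it binds. The first exon of an mRNA carries the cap, all or most of the 5′ untranslated region and often the start codon, and is followed by the first intron to be spliced. Promoters of widely expressed genes are mostly rich in G and C, and so are the first exons next to them.

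A whole peak could not be shown as sequence, but for 59 of the 548 peaks the first 30 transcribed bases annotated by RefSeq lay entirely inside the peak, and the start region of these genes can be read. The 6 with the smallest deposited p-value are shown from 30 bases before the start to the thirtieth transcribed base, because in these genes the peak reaches the 5′ end of the transcript. The sequences are from RefSeq on GRCh38.p14, 5′ to 3′ on the strand of the gene. Lower case marks the bases before the RefSeq start, and capitals mark the first transcribed bases, all of which the peak covered. The merged exon begins upstream of that start in some genes, and there the peak also ran over lower-case bases: all of them in WAC and TMEM259 and part of them in SRRM2 and RBM42. The windows are chr19:13774426-13774485 (plus strand) for C19orf53, chr16:2752608-2752667 (plus) for SRRM2, chr19:35629006-35629065 (plus) for RBM42, chr10:28532749-28532808 (plus) for WAC, chr19:1021094-1021153 (minus) for TMEM259 and chr2:74455057-74455116 (plus) for INO80B.
C19orf53: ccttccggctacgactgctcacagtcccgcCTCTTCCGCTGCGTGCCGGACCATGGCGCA
SRRM2: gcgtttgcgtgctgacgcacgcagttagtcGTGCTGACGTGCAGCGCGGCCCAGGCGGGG
RBM42: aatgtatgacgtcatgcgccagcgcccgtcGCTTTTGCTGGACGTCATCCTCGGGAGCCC
WAC: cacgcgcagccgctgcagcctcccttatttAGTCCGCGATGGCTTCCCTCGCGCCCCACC
TMEM259: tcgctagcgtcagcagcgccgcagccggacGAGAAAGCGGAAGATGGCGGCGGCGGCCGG
INO80B: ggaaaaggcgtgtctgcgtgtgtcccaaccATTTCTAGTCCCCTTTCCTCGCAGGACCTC

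Among these 6 starts, the capitals were 53.3% G or C in INO80B, 63.3% in RBM42, 70% in C19orf53, 73.3% in WAC and in TMEM259 and 80% in SRRM2. RefSeq windows of 250 bases before to 50 bases after the start were matched for 359 of the 446 genes (80.5%). Their median GC content was 67.7%, against 66.7% in 2115 genes that had peaks elsewhere only, 65.0% in 8328 genes that average 1 RPKM (reads per kilobase of gene length, scaled to library size) or more and 58.7% over all 35116 windows. Within the first 50 transcribed bases, on the sense strand, the purine-rich letters GAGGAG occurred in 7.52% of the genes with a first-exon peak (27 of 359). They occurred in 6.34% of the genes with peaks elsewhere, 5.87% of the genes that average 1 RPKM or more and 4.79% of all windows. The letters GACGAC occurred in 0.557% (2 of 359), 0.473%, 0.600% and 0.416% of the same sets. GGACT, one form of the DRACH context of N6-methyladenosine, occurred in 5.85%, 5.15%, 4.60% and 4.90%. In the 59 genes whose peak covers the start, these shares were higher than in the other sets, but rest on few genes. They were 10.2% for GAGGAG (6 genes), 1.69% for GACGAC (1 gene) and 8.47% for GGACT (5 genes), and no difference was tested. On either strand of the whole window, GAGGAG was found in 47.9% of the genes with a first-exon peak, 40.5% of those with peaks elsewhere, 40.1% of the genes that average 1 RPKM or more and 37.2% of all windows, and in 40.7% of the 59 genes whose peak covers the start. GACGAC was found there in 6.69%, 7.09%, 6.99%, 4.56% and 1.69% of the same sets in that order, and GGACT in 48.2%, 45.5%, 46.7%, 44.2% and 40.7%. Each of the 3 strings was searched separately, they can share bases, and a match says only that the letters are there. The windows stop 50 bases into the transcript, whereas most of the peaks lay further in.

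The authors' table of 25556 genes held 5897293 reads in the IP and 2782045 in the input, and 14057 genes averaged 1 RPKM or more over both libraries. The hepatocyte markers were abundant, with 10 of 10 present and a summed level of 7365 RPKM in the input and 6236 RPKM in the IP, and none of them had a first-exon peak. The 3 endothelial markers measured summed to 3.99 RPKM in the input and 2.70 RPKM in the IP, with CDH5 at 0 in the input, and the 3 fibroblast markers to 1.92 and 1.49 RPKM. The 4 erythroid markers, mostly HBB, summed to 1052 RPKM in the input and 694 RPKM in the IP, and the 5 immune markers, mostly LYZ, to 157 and 87.9 RPKM. The 4 bile duct markers summed to 111 RPKM in the input and 207 RPKM in the IP, through SOX9 (23.0 and 118 RPKM) and KRT19 (35.1 and 48.6), while EPCAM (51.9 and 39.4) and KRT7 (0.719 and 0.636) were lower in the IP. Of all these markers, SOX9 alone had a first-exon peak. The part of other cells' RNA in the peaks was not tested.

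First-exon peaks had folds in the range of peaks elsewhere. Peak heights are the fold enrichment in the IP over the input and the p-value that the authors' deposited table gives for each peak, and no fold in it is below 2. The median fold was 2.83 in first exons, 2.65 in internal exons and 2.86 in last exons. First-exon folds ran from 2.03 to 57.2, with an interquartile range that began at 2.34. A fold of at least 4 was reached by 112 of the 548 peaks (20.4%), against 18.3% of all peaks in genes with 2 or more exons, 16.6% of internal and 24.8% of last-exon peaks. A deposited false discovery rate of at most 0.05 was met by 311 peaks (56.8%), against 60.2% of all. Each of these shares was near its background, with first exons between internal and last exons for the fold. The median p-value was 0.0136 in first exons, 0.0107 in internal and 0.0143 in last exons. Only 15 first-exon peaks had a p-value of at most 1e-10. The 548 peaks held 263 different pairs of fold and p-value, so that many peaks carried exactly the values of another.

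A small group of first-exon peaks had much higher folds. A fold above 20 was given to 41 peaks (7.48%), against 5.11% of all peaks, 4.07% of internal and 8.50% of last-exon peaks, so first exons lay again between the other classes. The folds in this group ran from 23.3 to 57.2 while their p-values stayed between 0.00229 and 0.0147. In this group each fold came with a single p-value, such as 25.4 with 0.0125 and 27.6 with 0.0107, and the p-value fell as the fold rose. Whether few input reads in the peaks set these values was not tested, so the folds of this group are given as deposited only. How the authors scaled the folds is not known here. No p-value in this group was below 0.00229, and 7 of the 41 peaks lay in genes with at least 100 input reads.

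The peaks were short and mostly stayed inside the first exon. The median first-exon peak covered 125 exonic bases (interquartile range 75 to 200, range 50 to 2277), against 175 for internal and 150 for last-exon peaks. In the genome it spanned a median of 150 bases, against 702 for internal peaks. For 432 of the 548 peaks (78.8%) all exonic bases lay in the first exon, whereas 38.8% of internal and 88.7% of last-exon peaks lay in 1 exon. The other 116 ran over a splice junction into later exons, 101 of them into 1 further exon and 15 into 2 or more, with a median of 71.5% of their bases in the first exon. Another 130 peaks touched a first exon but were centred further downstream and are not counted. At the border between the classes, 38 peaks were centred within 25 bases of the end of their first exon.

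Most centres lay some distance into the exon and not at its 5′ edge. The median distance from the first base of the merged exon to the centre was 322 bases (interquartile range 174 to 639, range 24 to 3792). By distance, 63 peaks were centred within the first 100 bases, 109 between 100 and 200, 92 between 200 and 300, 98 between 300 and 500, 125 between 500 and 1000 and 61 at 1000 or beyond. Along the exon, 116 centres fell in the first of 3 equal parts, 215 in the middle part and 217 in the last. Only 54 peaks (9.85%) began at the first base of the exon. Measured from the RefSeq start instead, which lay inside the merged exon for 404 peaks in 333 genes, the median distance was 239.5 bases, and 15 of these centres lay upstream of that start.

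Coverage rose along the exon when the same exons were followed from base to base. In the 857 genes with a peak whose first exon had at least 400 bases, peaks covered 3.01% of the first 50 bases, 5.37% of bases 101 to 150, 7.00% of bases 201 to 250 and 9.16% of bases 351 to 400. In the 194 with at least 1000 bases, coverage was 4.53% over the first 50 bases, 11.8% over bases 351 to 400, 9.51% over bases 451 to 500 and 17.1% over bases 951 to 1000. The rise was thus seen in both sets, with a dip between 400 and 500 bases in the longer exons. Positions were counted from the 5′ end of the merged exon. That end was also the RefSeq start in 186 of the 359 matched genes with a first-exon peak. The first steps can therefore hold bases upstream of the RefSeq start, and their part in this rise was not tested. Read coverage per base is not analysed here, so that its part was not tested either.

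**Figure D1:**
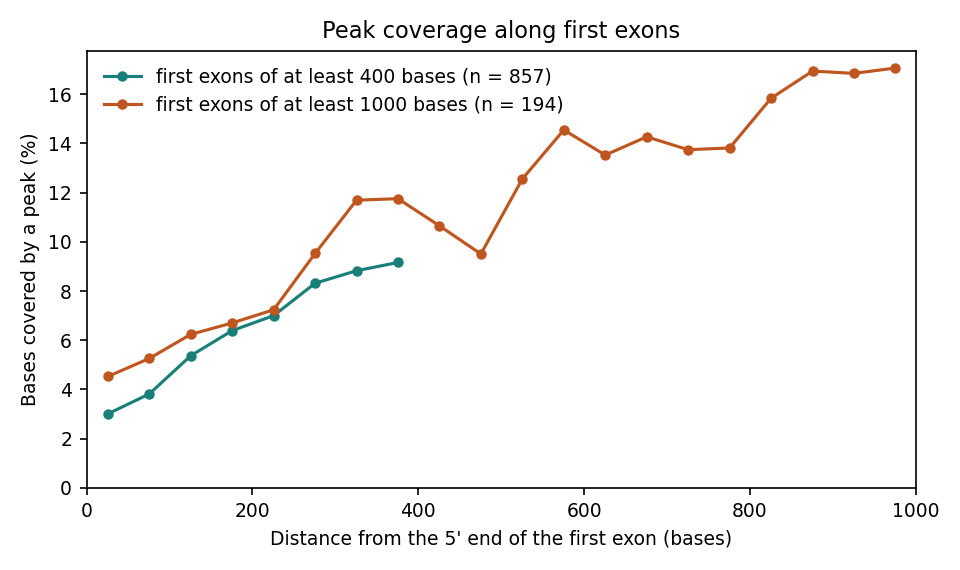
Share of first-exon bases covered by a peak (%, y axis) in steps of 50 bases from the 5′ end of the merged exon (x axis, bases), for genes with a peak. The curve for the 857 exons of at least 400 bases rises from 3.01% to 9.16%, and that for the 194 exons of at least 1000 bases from 4.53% to 17.1%.

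Genes with first-exon peaks had long first exons. The median first exon that held a peak centre had 599 bases (counted per peak; interquartile range 345.5 to 1114, range 62 to 7742). Per gene, the median first exon was 217 bases over 11887 measured genes, 247 bases over 2989 genes with any peak, 506 bases in genes with a first-exon peak and 593 bases in genes whose peaks were all in the first exon. Of measured genes with a first exon under 100 bases, 6 of 2021 had a peak centred there (0.297%). This share was 0.913% from 100 to below 200 bases (31 of 3397), 3.71% from 200 to below 400 (134 of 3609), 7.69% from 400 to below 1000 (170 of 2211) and 14.6% at 1000 or more (95 of 649). It rose at each step, while the share of the same genes with a peak anywhere stayed between 20.6% and 29.5%. A longer exon offers more bases for a centre to fall in, so that a rise with length follows in part from the rule.

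Per base, first exons held more peaks than the other classes but were less covered than internal exons. In genes with a peak, first exons made up 5.03% of exonic bases and 7.27% of peak centres, which is 0.476 peaks per kilobase. Internal exons had 63.7% of the bases and 0.387 peaks per kilobase, and last exons 31.3% of the bases and 0.189 peaks per kilobase. Peaks, wherever centred, covered 8.62% of first-exon bases, against 12% of internal and 4.18% of last-exon bases. The part of peak length in these shares was not tested. The order of first and internal exons therefore turned between the count of centres and the bases covered.

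**Figure D2:**
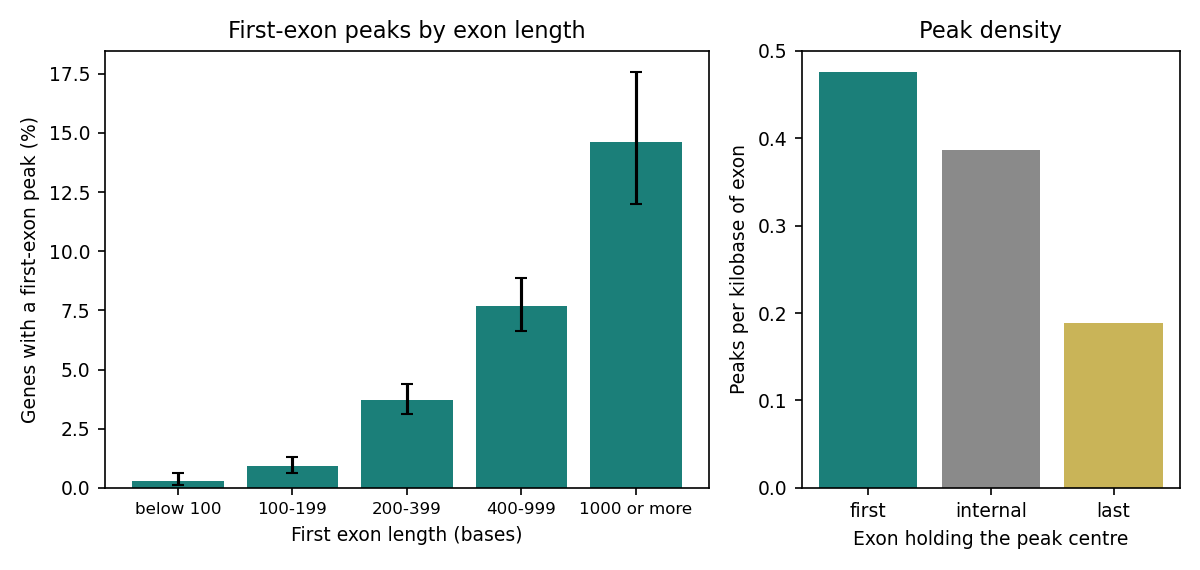
Left, share of measured genes with a peak centred in the first exon (%, y axis) by the length of that exon (x axis, bases), with exact binomial 95% intervals; the bars rise from 0.297% below 100 bases to 14.6% at 1000 bases or more. Right, peak centres per kilobase of exon in genes with a peak, at 0.476 for first, 0.387 for internal and 0.189 for last merged exons.

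The 446 genes were almost all protein-coding. RefSeq lists 437 as protein-coding and 1 as a long noncoding RNA, and 8 were not matched. A single first-exon peak was found in 366 genes, 2 in 65, 3 in 12 and 4 or more in 3. In 193 genes the first exon held every peak, and the other 253 had peaks in later exons too. Exon bases were shared with another gene on the same strand in 61 of the genes, and for these the reads and the peak cannot be assigned to one gene alone.

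Levels of these genes were mostly higher in the IP, which is not independent of the peaks, since the peaks were called from the same 2 libraries. On the log2 scale of (IP + 1)/(input + 1), with 1 RPKM added to both, the median over 436 genes with at least 1 RPKM was 0.78, against 0.14 over all 14057 genes. At least 2-fold higher in the IP were 131 of the 436 (30.05%), against 11.3% of all genes, and at least 2-fold lower were 0, against 8.25%. Genes with peaks in other exons only stood nearer to them than all genes did, with a median of 0.69 over 2516 genes and 566 at least 2-fold higher (22.5%). In genes with first-exon peaks only, the median was 0.46 and 24 of 183 were at least 2-fold higher (13.1%). Where further exons had peaks as well, it was 0.95, with 107 of 253 at least 2-fold higher (42.3%). Among genes with exactly 1 peak, the median was 0.38 where it lay in the first exon (150 genes), 0.51 in an internal exon (897 genes) and 0.48 in the last exon (313 genes). The part of the number of peaks per gene in these differences was not tested.

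**Figure D3:**
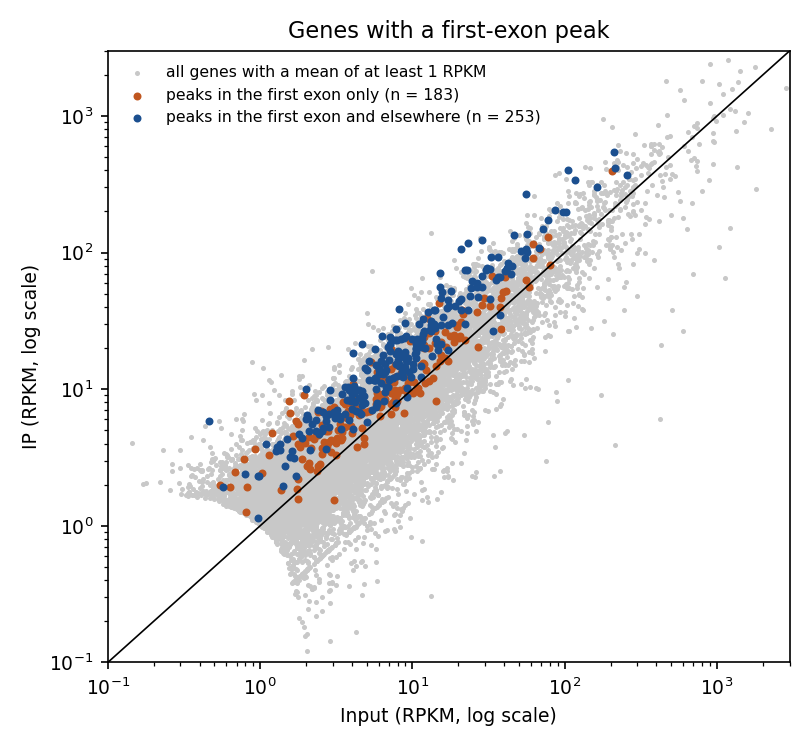
Level of each gene in the input (x axis) and the IP (y axis), in RPKM on log scales; grey points are genes that average 1 RPKM or more, orange those with peaks in the first exon only (183) and blue those with peaks in the first and other exons (253), and the line marks equal levels. Nearly all coloured points lie above the line, and the blue points lie mostly above the orange ones.

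In 25 of the 446 genes, 2 of them with 0 IP reads, the level was lower in the IP although a first-exon peak was called. The interval of the ratio was entirely above 1 for 365 genes, entirely below 1 for 7 and included 1 for 74. FBXO5, an inhibitor of the anaphase-promoting complex, had 8.18 RPKM in the IP and 14.3 in the input (ratio 0.573, 95% interval 0.461 to 0.715) and a peak of 250 bases with a fold of 3.90 and a p-value of 0.0332. KLB, the co-receptor for endocrine fibroblast growth factors in the liver, had 27.4 RPKM in the IP and 38.1 in the input (ratio 0.720, interval 0.651 to 0.797) and a peak of 75 bases with a fold of 2.44. The peak of PSPH, the phosphoserine phosphatase of serine synthesis, had a fold of 33.9 and a p-value of 0.00707, yet the gene had 20.3 RPKM in the IP and 26.8 in the input (ratio 0.758, interval 0.635 to 0.906). In these genes the peak stood against the level of the whole gene. The other 4 below 1 were CUL3, OSBPL8, RXYLT1 and TCP1, and these and FBXO5 and KLB were named after their values were seen. At the other end, AL357552.2 and AC008737.1 had 0 IP reads and 1 input read each in the gene table and still had a deposited peak, with folds of 2.21 and 4.88.

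The 12 first-exon peaks with the smallest p-values had folds from 2.08 to 3.53, in genes with 350 to 4331 input reads. Only C19orf53, SRRM2 and SFPQ lay above the first-exon median fold of 2.83. All the others lay below the lower quartile of 2.34. C19orf53 had the smallest p-value, 6.84e-45, at a fold of 3.53. Its peak covered 350 exonic bases over 3 exons and began at the first base (chr19:13774456-13775488, plus strand). Its level was 401 RPKM in the IP and 105 in the input (2828 and 350 reads), a ratio of 3.81 (interval 3.41 to 4.27). It was the highest gene ratio among the 12 smallest p-values, and its start sequence is the first of those printed above.

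SRRM2, a scaffold protein of nuclear speckles, also had a peak from the first base (300 bases over 2 exons, fold 3.18, p-value 7.90e-13). Its gene stood at 75.02 RPKM in the IP and 22.1 in the input, a ratio of 3.40 (interval 3.15 to 3.66), and carried 18 peaks in all, of which this was the only one centred in the first exon. CHMP4B, an ESCRT-III subunit that acts in membrane scission, had a fold of 2.08 with a p-value of 2.60e-22 in 100 bases of a 311-base first exon. It had no other peak, and its level was 394 RPKM in the IP and 203 in the input (ratio 1.94, interval 1.81 to 2.09). HNRNPUL2, an RNA-binding protein related to hnRNP U, had a fold of 2.12 in 175 bases centred 704 bases into an 839-base exon, with 103 RPKM in the IP and 51.8 in the input (ratio 1.99, interval 1.84 to 2.16). It shares exon bases with another gene.

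FAM32A (fold 2.19) and CDV3 (fold 2.31) had 205 and 196 RPKM in the IP, against 86.6 and 101 in the input. PSMA7, a core subunit of the proteasome, had a fold of 2.21 at 300 RPKM in the IP and 162 in the input. PDIA4, a protein disulfide isomerase of the endoplasmic reticulum, had a fold of 2.29 and the lowest gene ratio of the 12 genes, 1.45 (371 RPKM in the IP, 255 in the input, interval 1.38 to 1.52). The peaks of CDV3, PSMA7 and PDIA4 each ran over the junction into a 2nd exon. They were centred 587 bases into a 599-base first exon, 231 into 233 and 321 into 342. ARGLU1, an arginine- and glutamate-rich protein linked to splicing, had 2 peaks in its 565-base first exon, with folds of 2.16 and 2.29. SGCE, described below with its neighbour PEG10, was the least abundant gene of the 12.

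SFPQ, a paraspeckle protein that binds RNA and DNA, was the most abundant of the genes with several first-exon peaks, with 543 RPKM in the IP and 210 in the input (23750 and 4331 reads, ratio 2.59, interval 2.504 to 2.67). Its 924-base first exon held 3 peaks, centred 153, 428 and 853 bases in, with folds of 3.04, 2.44 and 3.12. The third of these had a p-value of 4.96e-16. Internal exons of SFPQ held 4 more peaks, 2 of which had p-values of 4.91e-201 and 4.30e-189 at folds of 2.16 and 2.15, so the first exon held the higher folds of this gene and not its smallest p-values.

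The 10 highest folds at or below the median p-value lay in genes of varied depth, from 4 input reads in SARS2 to 206 in PSPH. VCPIP1 had the same fold (33.9) and p-value as SARS2 and PSPH but was left out of the 10. The highest was 57.2 in NR2F1, the orphan nuclear receptor COUP-TFI, followed by 48.8 and 40.3 in WASF1, a regulator of actin assembly, 46.6 in GPATCH1, a G-patch protein of the spliceosome, 44.5 in LSM14B and 38.2 in RFXAP, a subunit of the RFX complex that drives MHC class II genes. NR2F1 had 27.6 RPKM in the IP and 7.84 in the input (702 and 94 reads, ratio 3.52, interval 2.84 to 4.42). WASF1 had 8.17 and 1.54 RPKM (157 and 14 reads, ratio 5.29, interval 3.06 to 9.90), and RFXAP had 3.09 and 0.779 RPKM (42 and 5 reads, interval of the ratio 1.57 to 12.8). The fold of each peak was far above the ratio of its gene. The gene ratio of SARS2, the mitochondrial seryl-tRNA synthetase, was the highest at 12.5 among all genes with a first-exon peak other than AP000941.1, which had 4 IP and 0 input reads, but rested on 106 IP and 4 input reads (interval 4.74 to 46.7) in a gene that shares exon bases.

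The 2 peaks of WASF1 were centred side by side in a 566-base first exon (chr6:110178674-110179544 and chr6:110179570-110179769, minus strand). Of these, the peak with a fold of 40.3 ran over the splice junction into the next exon. These 2 were the only peaks of WASF1, and both had folds above 40 with p-values of 0.00494 and 0.00327. NR2F1 differed within a single exon: from 5′ to 3′ its 3 peaks had folds of 2.17, 8.97 and 57.2, at 437, 1262 and 1999 bases of a 2265-base exon. Their deposited p-values were 0.00375, 0.00119 and 0.00229 in the same order, and so did not follow the fold. The peaks of NR2F1 in an internal exon and in the last exon had folds of 27.6 and 2.81.

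IRS1, the adaptor that couples the insulin receptor to its downstream kinases, had the most first-exon peaks, 8 of its 9. They were spread over its 4771-base first exon from 492 to 3792 bases, with folds of 6.63, 2.44, 2.65, 4.88, 5.85, 2.73, 3.51 and 8.77 from 5′ to 3′. The highest folds were thus at both ends of the row, and the peak farthest from the start was the highest. The deposited false discovery rates were 0.0234, 0.0857, 0.0554, 0.0471, 0.0809, 0.0385, 0.00640 and 0.00935 in the same order. The gene had 9.86 RPKM in the IP and 3.83 in the input (579 and 106 reads, ratio 2.58, interval 2.09 to 3.20). INSR, the insulin receptor itself, had 2 peaks in its 623-base first exon with folds of 6.24 and 7.02. Both had a deposited false discovery rate above 0.05 (0.0760 and 0.0665). The INSR gene had 8.31 RPKM in the IP against 3.85 in the input (ratio 2.16, interval 1.76 to 2.66).

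MAP3K11, a kinase upstream of JNK, had the longest first exon with a peak, 7742 bases by the merged annotation, and 4 peaks in it. These lay together between 1242 and 2067 bases, with folds of 23.3, 36.0, 3.07 and 2.44 from 5′ to 3′, and the rest of the exon had none. The 2 peaks nearer the start had the higher folds but the larger deposited p-values, 0.0147 and 0.00624, against 0.00140 and 0.00208 for the other 2. TLE1, a Groucho-type co-repressor, had 3 peaks with folds of 3.03, 2.38 and 3.29 at 207, 582 and 957 bases. MAP3K11 had 6.76 RPKM in the IP and 2.59 in the input, and TLE1 had 29.7 and 13.3.

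**Figure D4:**
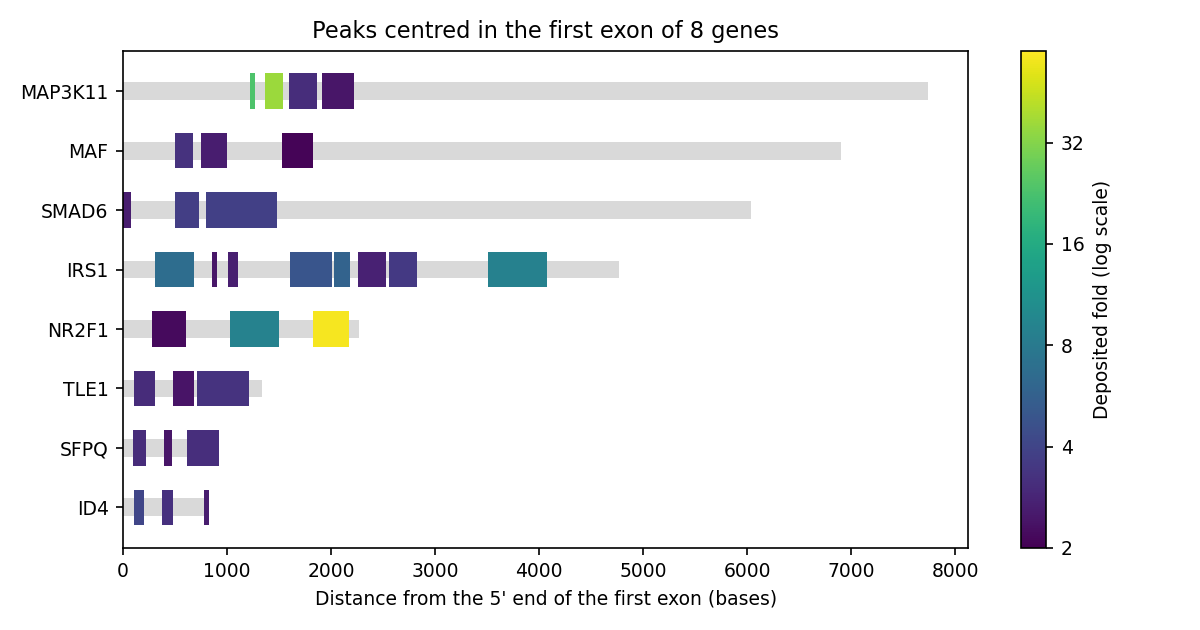
First merged exons (grey bars, distance from the 5′ end in bases on the x axis) of 8 genes with 3 or more first-exon peaks, with each peak as a block coloured by its deposited fold (log scale). The 8 peaks of IRS1 are spread along its exon, those of MAP3K11 lie between 1242 and 2067 bases, and in NR2F1 the fold rises from 2.17 to 57.2. The deposited p-values of the NR2F1 peaks do not follow this rise (0.00375, 0.00119 and 0.00229 from 5′ to 3′).

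Where the first exon is most of the gene, a first-exon peak says little about the 5′ end. The first exon made up over 50% of the exonic length for 48 peaks in 28 genes, while the median share was 10.2%. MAF, a bZIP transcription factor, has 98.6% of its length in the first exon, and its 3 peaks lay at 586, 874 and 1674 bases of 6900, with folds of 3.25, 2.63 and 2.07. TRIM52, a ubiquitin ligase, had 3 peaks between 312 and 649 bases of 5993, with folds of 2.23, 2.63 and 2.43. SMAD6, an inhibitor of BMP signalling, had 3 peaks at 37, 612 and 1137 bases of 6039, with folds of 2.63, 3.705 and 3.79. RBM15, an RNA-binding protein of the methyltransferase complex for N6-methyladenosine, had 2 at 1049 and 2937 bases of 4185. ZBED6 had a fold of 27.6 at 714 bases and 2.86 at 1889 bases of 7303, in a gene that shares exon bases. In these 5 exons the peaks lay nearer the 5′ than the 3′ end, with the exception of the second peak of RBM15.

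Over all measured genes with 2 or more exons, 436 of 11887 had a first-exon peak (3.67%), and this share differed between lists of genes by function. For the counts of list members with any peak, the background is that 2990 of all 25556 genes were genes with 2 or more exons and a peak. Among measured genes with 2 or more exons, the share with a peak anywhere was between 20.6% and 29.5%, by first-exon length. The 10 gene lists used here were drawn up with earlier results of these data known, so that their counts are a description only, and no difference between them was tested. Of 59 genes for liver and developmental transcription factors, 27 had a peak and 11 of those had one in the first exon, among them ID4, NR2F6, ONECUT2, NR2F1, SOX13, SOX9, FOXP4, IRF2BP2 and FOXK2. Among the measured members with 2 or more exons these were 11 of 46 (23.9%). ID4, an inhibitor of DNA-binding helix-loop-helix proteins, had 3 peaks in its 826-base first exon with folds of 4.10, 3.22 and 2.63. Their deposited false discovery rates were 0.0662, 0.0441 and 3.88e-06. The gene had 33.5 RPKM in the IP against 15.9 in the input (ratio 2.11, interval 1.79 to 2.51). NR2F6, an orphan nuclear receptor, had 2 with folds of 7.80 and 4.88 and deposited false discovery rates of 0.0583 and 0.000128. Its levels were 30.2 RPKM in the IP and 11.0 in the input (ratio 2.74, interval 2.16 to 3.51). SOX9, a bile duct and progenitor factor, had a fold of 3.77 and the highest gene ratio of the 11, 5.13 (118 RPKM in the IP, 23.0 in the input, interval 4.51 to 5.87). Over the 55 measured genes of this list the median log2 ratio was 0.81, with 20 at least 2-fold higher and 0 lower (11.3% and 8.25% over all genes), and the median first exon had 399 bases, the longest of the 10 lists.

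Of 57 chromatin regulators, 45 had a peak and 9 had one in the first exon, among them ASXL1, KMT2C, CHD3, EP300, SMARCD1, KMT2B and SETD2, which is 9 of the 53 measured with 2 or more exons (17.0%). These genes carry many peaks, and the first exon held 1 of them in each case. EP300, a histone acetyltransferase, had 13 peaks and a first-exon fold of 8.97 from the first base, at 21.6 and 4.64 RPKM (ratio 4.64, interval 3.92 to 5.53). ASXL1, a partner of the deubiquitinase BAP1, had 9 peaks, and CHD3, a remodeller of the NuRD complex, had 8. KMT2B, a histone H3 methyltransferase, had a first-exon fold of 6.63 (deposited false discovery rate 0.0709) and a gene ratio of 5.08 (interval 3.87 to 6.76). The median log2 ratio over 56 measured genes was 0.99 (0.14 over all genes), with 28 at least 2-fold higher, against 11.3% of all genes.

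Of 75 RNA-binding proteins and splicing factors, 39 had a peak and 9 had one in the first exon: HNRNPUL2, SRRM2, SF1, DDX39B, PRPF8, U2AF2, EWSR1, RBM15 and YTHDF1, which is 9 of 71 measured with 2 or more exons (12.7%). SF1, which recognises the branch point, had 2 with folds of 2.47 and 2.96 in an 800-base exon, at 92.9 RPKM in the IP and 32.9 in the input (ratio 2.82, interval 2.58 to 3.10). U2AF2, which binds the polypyrimidine tract, had a fold of 2.34 at a gene ratio of 2.49 (interval 2.22 to 2.79). DDX39B, an RNA helicase of mRNA export, had a peak centred at base 2126 of its 2127-base exon, on the junction to the next exon, in a gene that shares exon bases. The median log2 ratio over the 74 measured genes was 0.53, with 16 at least 2-fold higher, against 11.3% of all genes. Neither of the proteins named for the antibody had a first-exon peak: SRSF7 had 0 peaks at 33.8 RPKM in the IP and 30.5 in the input (ratio 1.11, interval 0.977 to 1.26), and YTHDF2 had 1 peak, in a later exon, at 9.14 and 7.42 RPKM (ratio 1.23, interval 0.942 to 1.62).

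Immediate early and stress genes had 15 of 48 with a peak and 4 in the first exon: MYC, DUSP6, CCN2 and MYCN (13.3% of 30 measured with 2 or more exons). The transcription factors MYC and MYCN had 2 first-exon peaks each, with folds of 2.15 and 2.54 in MYC and of 2.34 and 2.15 in MYCN. MYC had 17.7 RPKM in the IP and 6.43 in the input (ratio 2.75, interval 2.17 to 3.52), and MYCN 30.7 and 8.93 (ratio 3.43, interval 2.64 to 4.52). DUSP6, a phosphatase of ERK, had a fold of 25.4 at 6.77 and 4.47 RPKM (ratio 1.51, interval 1.09 to 2.14), again a high fold in a gene with few input reads (48). Signalling adaptors and receptors had 18 of 45 with a peak and 4 in the first exon, namely SMAD6, IRS1, EGFR and INSR (12.9% of 31). EGFR, the receptor of epidermal growth factor, had the lowest gene ratio of these, 1.29 (17.4 and 13.4 RPKM, interval 1.16 to 1.44). Its first-exon peak ran over 3 exons and was centred 345 bases into a 349-base first exon.

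The other lists had shares near the 3.67% of all measured genes, or no first-exon peak in lists too small to tell 0 from that share. Of 41 cytosolic ribosomal proteins and translation factors, 9 had a peak and 0 had one in the first exon, at a median log2 ratio of -0.03. Respiratory chain subunits had 5 of 38 with a peak, 0 in the first exon, a median of -0.54 and 9 genes at least 2-fold lower in the IP, against 8.25% of all genes. The median first exon of these lists had 250 and 182 bases. Secreted hepatocyte proteins had 11 of 46 with a peak and 2 in the first exon (5.13% of 39): LAMC1, a laminin chain, with folds of 2.17 and 2.83, and F5, coagulation factor V, with a fold of 2.23. Their gene ratios were 1.66 (interval 1.56 to 1.77) and 1.48 (interval 1.32 to 1.67). Of 36 genes of the endoplasmic reticulum and folding, 14 had a peak and PDIA4 and the Hsp70 co-chaperone DNAJB1 had one in the first exon (5.88% of 34). A list of 25 nucleolar and acidic proteins had 15 with a peak and 1 in the first exon (4% of 25), MKI67, the proliferation marker Ki-67, with 271 RPKM in the IP and 55.8 in the input (ratio 4.85, interval 4.63 to 5.08) and a fold of 2.47 in its first exon.

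Some first-exon peaks lay opposite another transcript. Of the 548 peaks, 62 (11.3%) overlapped an exon of a gene on the other strand, against 3.8% of internal and 9.46% of last-exon peaks. For 21 (3.83%) there was also a deposited peak on the other strand that shared exonic bases, against 0.604% of internal and 4.58% of last-exon peaks. In 7 pairs both peaks were centred in first exons, of genes on opposite strands, among them PEG10 and SGCE, GLUD1 and SHLD2, APOM and BAG6, AMIGO2 and PCED1B, FAM120A and FAM120AOS, and PRPF31 and TFPT.

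PEG10 and SGCE are imprinted neighbours, PEG10 being derived from a retrotransposon and SGCE encoding a sarcoglycan. The peak of SGCE (chr7:94656479-94656572, minus strand) shared all of its 94 bases with the first-exon peak of PEG10 (chr7:94656475-94661070, plus strand). Their folds were 2.25 and 2.18, and their p-values 6.96e-18 and 2.16e-32, both among the 12 smallest. PEG10 had 417 RPKM in the IP and 213 in the input (16448 and 3973 reads, ratio 1.95, interval 1.89 to 2.02), and SGCE 13.2 and 8.39 RPKM (1627 and 487 reads, ratio 1.58, interval 1.42 to 1.75). One gene of the pair was thus far more abundant than the other.

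GLUD1, the mitochondrial glutamate dehydrogenase, and SHLD2, a DNA repair protein of the shieldin complex, shared 75 bases, with folds of 3.03 and 2.72 and p-values of 5.17e-08 and 1.53e-07. PRPF31, a spliceosomal protein, and TFPT had the same fold (3.705) and the same p-value (0.0391) in peaks that shared 49 of 50 bases. The same values on both strands also occurred for a first-exon peak of SPRTN and the peak of the single-exon gene EXOC8 opposite it (fold 7.02, p-value 0.0289). The first-exon peak of DNAJB1 and a peak of TECR in an internal exon had folds of 3.20 and 2.95 over 172 shared bases. Whether reads of one strand were counted on the other was not tested, as reads by strand are not analysed here. Without the peaks that share bases with a peak on the other strand, 527 first-exon peaks in 429 genes remained (7.02%).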

How the data were processed

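Reads of 1 IP and 1 input library went through Trimmomatic and then STAR 2.5.3a for alignment (per the submitters' processing notes). For these files the counting program, annotation, peak caller and build, not given in the sources used here, remain unknown. Of 19414 deposited genes matched to RefSeq by symbol, 67.0% shared an exon boundary with GRCh38.p14, and the coordinates are read as that build.

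The gene levels are RPKM, a unit read from the values that the authors deposited, since the header is silent on it. Dividing by what 1 read is worth gave whole numbers within 0.01 of a read for 100% of them, and hence the read totals: 5897293 in the IP and 2782045 in the input. These reads may count both mates of a pair, so that the intervals are then too narrow. Per the file headers, the authors give a peak its fold (a ratio of IP to input), p-value, score and false discovery rate, all from these 2 libraries without replicates. All deposited folds were at least 2 and all p-values at most 0.05. How the folds were scaled between libraries is unknown here. Deposited peak starts were read as counting from 0 and are printed from 1.

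Each peak went to the gene on its strand that shared most exonic bases with it (minimum 1 base); 26 of the 548 peaks had several candidate genes and 12 of them tied, which was settled by the higher IP reads. The log2 ratio of a gene was taken after adding 1 RPKM to both levels, which makes changes of low genes look smaller, and only genes that average 1 RPKM or more are measured on it. Ratios of single genes are of RPKM without that addition, with exact (Clopper-Pearson) 95% intervals from the reads. How samples were grouped follows their titles. The assignment was tested on simulated peaks that each lay within a single exon of a gene that shares no exon bases. Peaks over splice junctions and ties between genes were not simulated. The software was matplotlib 3.10.9, scipy 1.17.1, pandas 2.3.3 and numpy 2.4.6 under Python 3.11.15. No p-value was computed.

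Named genes are those of the 12 smallest p-values, the 10 highest folds at or below the median p-value, the 5 genes with most first-exon peaks, the 5 longest first exons, the 4 smallest p-values of each list, and SRSF7 and YTHDF2; list members beyond the fourth and the genes of opposite-strand pairs were chosen for naming once their values had been seen. The members and lists were chosen with earlier results of these data known. Some genes are not reported here. Alternatives changed the peak threshold, the overlap, the centre, shared exons, the value added, the filter and the scaling.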

Additional observations from a re-analysis of the deposited data

How the results depend on the processing

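The number of first-exon peaks fell from 548 to 311 when only peaks with a false discovery rate of at most 0.05 were kept, and to 232 with a fold of at least 3, in 263 and 199 genes. With a fold of at least 3 their share of peaks was 8.35%, their median fold 3.90 and the share with a fold of at least 4 48.3%, as that threshold removes low folds. With the midpoint of the genomic span as centre the share was 5.84% (440 peaks), of which 98.2% lay inside the exon, because peaks across introns drop out. The median log2 ratio of the genes was 0.88 with 0.1 RPKM added and 0.52 with 5 RPKM added, and 0.64 when centred on the median of all genes, which shifts ratios by 0.14. The share at least 2-fold higher was then 41.3%, 13.5% and 20.6%, against 16.9%, 3.48% and 8.37% of all genes. No value changed direction. Without genes that share exon bases, 475 peaks in 385 genes remained, and reading deposited starts as counting from 1 left 548. The last of these, and the removal of peaks opposite another peak, were chosen after seeing the data. Among ratios of named genes, 13 of 49 moved beyond their interval under centring. No paired analysis was possible because each group has 1 library. With 120 input reads in the median gene and under 50 in 96 of the 446 genes, depth limits what can be said of peaks in low genes.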
